A study of Danio rerio with 6 samples.

Results

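The genes described here are the zebrafish (Danio rerio) ligands, receptors, processing enzymes and nuclear effectors of the Notch pathway, with the her, hes and hey genes. They were taken by gene symbol from the deposited count table, and 49 of its 14612 distinct genes matched. By role these are 8 ligand genes, 4 receptor genes, 3 fringe genes, 4 genes of mindbomb ubiquitin ligases and Numb adaptors, 5 protease genes, 2 rbpj genes, 16 her genes, 3 hey genes and 2 hes genes. The 2 remaining rows, mibp and mibp2, match by the first letters of their symbols only, since the table describes them as muscle-specific beta 1 integrin binding proteins, and they are kept apart below. No row of the table had a symbol starting with maml, the Mastermind genes.

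RNA was sequenced from pools of 33 to 35 whole embryos at 7 days post fertilization. There were 3 pools held in embryo medium with dissolved nucleotides at 10 µM (nucleotide) and 3 pools held in embryo medium alone (control), each numbered 1 to 3. The labels name neither the nucleotides nor the strain. The column headings of the exposed libraries name carbon monoxide instead, and the libraries were assigned by their library names, so the agent rests on the labels. Whole pools were used, and fewer cells of a type cannot be told apart from less RNA per cell.

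Notch signalling passes between touching cells. A Delta or Jagged ligand on one cell binds a Notch receptor on its neighbour, mindbomb ligases drive the uptake of the ligand, an ADAM10 protease and then gamma-secretase cut the receptor, and the freed intracellular domain joins Rbpj on DNA. Many her and hey genes are turned on in this way and encode repressors that hold back proneural genes. In zebrafish the pathway is known for keeping neural progenitors of the brain and retina undifferentiated, for somite segmentation earlier in development and for arterial and gut cell fates.

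Of the 49 genes, 46 had at least 1 count and 42 had enough counts to be tested. None of the 42 passed an adjusted p of 0.05 in the comparison of nucleotide with control libraries (edgeR quasi-likelihood test, Benjamini-Hochberg adjustment over 13336 genes), while 132 of all tested genes did (0.990%, with 0.937% higher and 0.0525% lower). At an unadjusted p under 0.05 there were 4 members, 3 higher (mfng, her4.3 and her13) and 1 lower (notch1a), and 14.5% of all genes reached that level (8.30% higher and 6.19% lower). DESeq2 also called 0 members, against 3.79% of all genes it gave an adjusted p. Of the members 0 passed in the authors' deposited table, against 4.12% of genes with an adjusted p there. The median log2 fold change of the 42 members was -0.031 (nucleotide over control; -0.033 without mibp2), and that of all tested genes was -0.014. The 95% interval of the fold change lay within 2-fold in either direction for 40 of the 42 members, and for 89.8% of all tested genes.

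Same-numbered libraries of the 2 groups deviated together, so the fit was repeated with the replicate number as a block, which compares each nucleotide pool with the control pool of its number. The labels state no pairing, so calls made with the block rest on a pairing chosen from the same counts. With this block 5 members passed an adjusted p of 0.05. The receptor gene notch1a, the ligand genes jag2b and dla and the Numb-like gene numbl fell, and the protease gene adam10a rose. With the block 19.1% of all genes passed (10.7% higher and 8.38% lower), a share above that of the members, of which 5 of 42 passed. The 5 kept their direction under each alternative run. With library totals in place of the trimmed mean of M values (TMM) the median of all genes stood at -0.138 in the fit without the block. In the fit with the block it stood at -0.140. There 0 of the 42 members rose and 10 fell, beside 686 and 2889 of all 13336 genes.

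**Figure D1:**
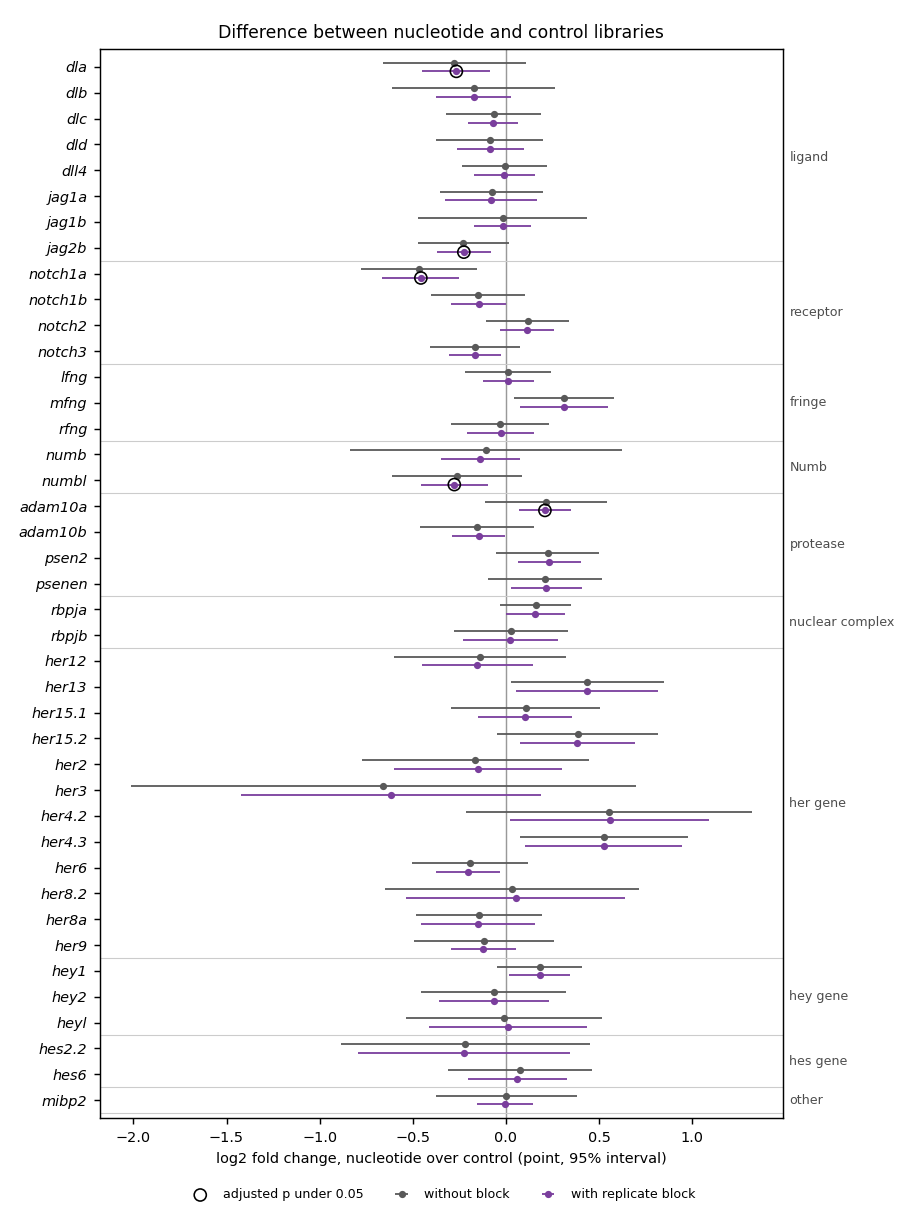
Log2 fold change of 41 of the 42 tested members, nucleotide over control, by role (grey, without the block; purple, with the replicate number as a block). Points are estimates, lines are 95% intervals and rings mark an adjusted p under 0.05, which 5 members reached with the block and none without it.

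The receptor gene notch1a (NCBI gene 30718), which encodes one of the zebrafish counterparts of mammalian Notch1, differed most among the receptors. It was at 38.3, 39.6 and 40.8 CPM in nucleotide libraries, against 64.2, 44.5 and 55.4 CPM in control libraries, where CPM are counts scaled to a TMM-scaled library total of 1000000. All 3 nucleotide libraries lay below all 3 control libraries, and the nucleotide libraries were close together while the control libraries were spread. The means were 39.6 ± 1.21 CPM in nucleotide and 54.7 ± 9.91 CPM in control libraries (SD, n = 3 each). The log2 fold change was -0.47 ± 0.135 (SE), with an edgeR adjusted p of 0.182, and DESeq2 gave an adjusted p of 0.0785. With the block it fell by 0.46 ± 0.0946 (SE, adjusted p = 0.00666), and it also passed with the block when pair 1, 2 or 3 was left out (adjusted p = 0.0203, 1.17e-07 and 0.0417), with a blocked log2 fold change of -0.30 without pair 1, -0.59 without pair 2 and -0.46 without pair 3. A blocked fit without a pair has few residual degrees of freedom, so these adjusted p-values lean on the spread shared across genes. The authors' deposited table gives notch1a an adjusted p of 0.0737.

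The second Notch1 gene, notch1b, was at 46.1, 40.6 and 46.1 CPM in nucleotide libraries, against 54.8, 44.4 and 48.1 CPM in control libraries. It was lower in the nucleotide library of all 3 pairs, but its groups overlapped and it did not pass with the block (log2 fold change -0.15, adjusted p = 0.158). notch3, a receptor known from vascular mural cells and neural progenitors, was at 139, 129 and 152 CPM in nucleotide libraries, against 166, 144 and 161 CPM in control libraries, with a log2 fold change of -0.17 ± 0.105 (SE, edgeR adjusted p = 0.524, and 0.0956 with the block). notch2 was at 109, 107 and 125 CPM in nucleotide libraries, against 109, 100.4 and 106 CPM in control libraries, and its change on the log2 scale was 0.12 ± 0.0964 (SE, 0.635 as edgeR's adjusted p). Of the 4 receptors notch2 alone had a value above 0, and with library totals as the scaling it also stood below 0 (-0.011). Summed over the receptors, the level was 332, 316 and 365 CPM in nucleotide libraries, against 394, 333 and 371 CPM in control libraries, and the groups overlapped.

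All 8 ligand genes had a log2 fold change below 0, between -0.28 (dla) and -0.0066 (dll4), as had 7010 of the 13336 tested genes. For dlc, dld, dll4 and jag1b the value turned above 0 when single libraries or pairs were left out. None of the 8 passed without the block, and no ligand separated the groups. The Jagged gene jag2b (140422) was at 56.6, 51.1 and 54.02 CPM in nucleotide libraries, against 67.95, 55.3 and 66.4 CPM in control libraries. Each nucleotide library was below the control library of its number, although control library 2 was close to the nucleotide libraries. With the block jag2b fell by 0.23 ± 0.0661 on the log2 scale (SE, adjusted p = 0.03396), against 0.374 without it. The Delta gene dla (30131), expressed in newly forming neurons, was at 31.99, 26.8 and 33.2 CPM in nucleotide libraries, against 43.8, 28.4 and 39.2 CPM in control libraries. Libraries numbered 2 were lowest in both groups, and dla fell by 0.27 ± 0.0835 on the log2 scale with the block (SE, adjusted p = 0.0446), against 0.498 without it. Both calls were lost with the block without pair 1 (0.145 for jag2b and 0.3196 for dla) and without pair 3 (0.118 and 0.12).

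Estimates for the other ligands were nearer to 0. dlc, a Delta gene with a role in somite formation and arteries, was at 109.8, 94.5 and 88.6 CPM in nucleotide libraries, against 109.8, 102 and 94.7 CPM in control libraries. dll4, the Delta-like ligand of arterial and tip endothelial cells, was at 44.4, 47.3 and 39.5 CPM in nucleotide libraries, against 41.4, 45.4 and 44.9 CPM in control libraries. In both genes the groups overlapped, and the 95% interval of the log2 fold change ran from -0.32 to 0.19 for dlc and from -0.24 to 0.22 for dll4. dld is counted among the ligands by its symbol, while RefSeq now lists its gene number under the symbol dldh. It had 23.8 ± 1.79 CPM in nucleotide and 25.3 ± 3.32 CPM in control libraries (SD, n = 3 each). dlb had 15.5 ± 3.06 CPM in nucleotide and 17.5 ± 3.44 CPM in control libraries (SD, n = 3 each), and jag1a had 10.7 ± 0.617 CPM in nucleotide and 11.3 ± 0.6002 CPM in control libraries (SD, n = 3 each). The Jagged gene jag1b was at 38, 28.9 and 44.8 CPM in nucleotide libraries, against 39.5, 29.1 and 44.3 CPM in control libraries, so its levels followed the replicate number and not the exposure, with a log2 fold change with the block of -0.017 (95% interval -0.17 to 0.13).

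**Figure D2:**
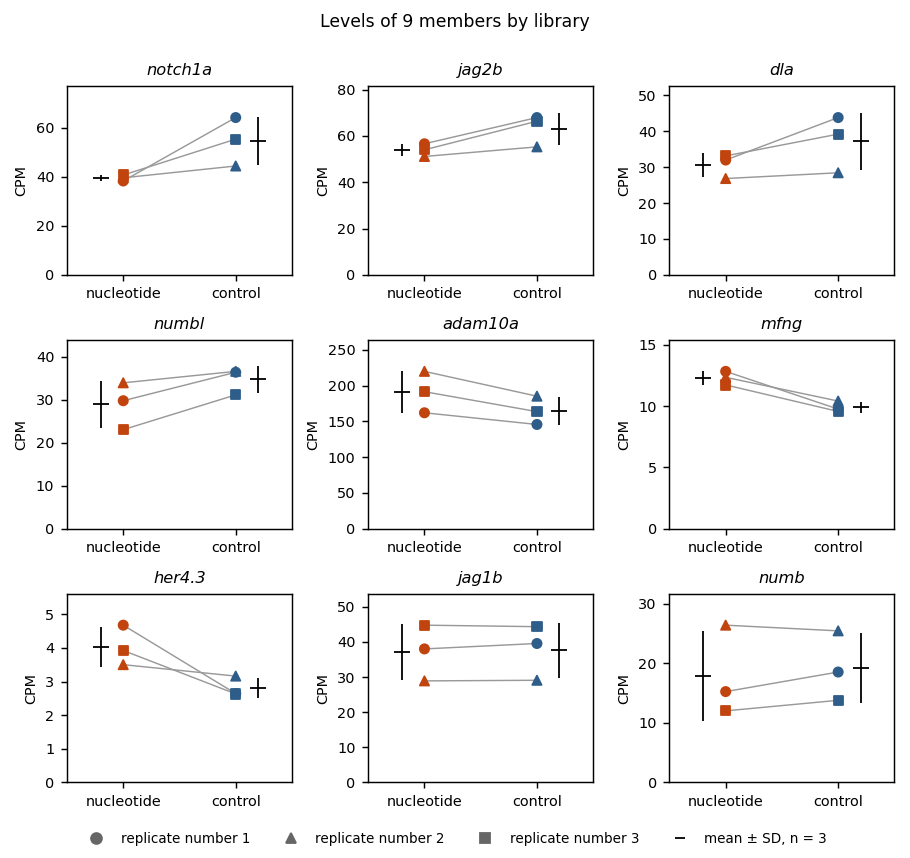
CPM of 9 members in each library, nucleotide on the left and control on the right of each panel, with lines joining libraries of the same replicate number and crosses for the mean ± SD (n = 3 each). notch1a lies between 38.3 and 40.8 CPM in nucleotide libraries and between 44.5 and 64.2 CPM in control libraries. Of the panels, jag2b, numbl, adam10a, jag1b and numb keep the order of the replicate numbers in both groups. So do 35.7% of the tested members and 38.3% of all tested genes.

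Fringe enzymes add sugars to Notch and so change which ligands it answers to. The gene mfng (493633) was at 12.8, 12.4 and 11.7 CPM in nucleotide libraries, against 9.76, 10.4 and 9.57 CPM in control libraries, so every nucleotide library was above every control library. Its log2 fold change was 0.31 ± 0.117 (SE, edgeR adjusted p = 0.277), and it passed neither without nor with the block (0.0641). lfng was at 91.9, 97.1 and 105 CPM in nucleotide libraries, against 94.7, 90.3 and 106 CPM in control libraries and followed the replicate numbers more than the exposure. rfng was at 33.5 ± 2.099 CPM in nucleotide and 34.3 ± 4.04 CPM in control libraries (SD, n = 3 each). The 95% interval of the log2 fold change was -0.22 to 0.24 for lfng and -0.29 to 0.23 for rfng, so both were within 2-fold.

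Numb-type adaptors hold back Notch in one daughter of a dividing cell. The gene numbl (497616), which encodes a Numb-like adaptor, was at 29.8, 33.96 and 23.1 CPM in nucleotide libraries, against 36.4, 36.6 and 31.2 CPM in control libraries. The groups overlapped, with every nucleotide library below its same-numbered control library. With the block numbl fell by 0.28 ± 0.08198 on the log2 scale (SE, adjusted p = 0.0356), against 0.475 without it, and the blocked call was lost without pair 1 (0.0678) or pair 3 (0.1702). numb itself was at 15.25, 26.40 and 12.01 CPM in nucleotide libraries, against 18.53, 25.44 and 13.79 CPM in control libraries. Libraries numbered 2 were highest and those numbered 3 lowest in both groups, and the log2 fold change of -0.11 ± 0.316 (SE) had the 95% interval -0.84 to 0.62. The rows mib and mib2 (mib2 is a mindbomb ubiquitin ligase) were listed at 0 in all 6 libraries, as were 477 of the 14612 genes. A count of 0 allows up to 3 counts, or 0.104 to 0.155 CPM by library, and this limit covers counting error only. The mib row has no NCBI gene number, and whether reads could be assigned to these rows is not known.

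The proteases that cut Notch were measured in 5 genes. adam10a (566044), which encodes the metalloprotease of the first cut, was at 162, 220.0 and 192 CPM in nucleotide libraries, against 146, 185 and 164 CPM in control libraries. Each nucleotide library was above the control library of its number, yet the groups overlapped. With the block adam10a rose by 0.21 ± 0.0629 on the log2 scale (SE, adjusted p = 0.0377), against 0.542 without it. This call was lost with any pair left out (0.0513, 0.222 and 0.0696 without pair 1, 2 or 3), and under upper-quartile scaling or library totals. Its paralog adam10b was at 129, 109 and 113 CPM in nucleotide libraries, against 154, 114 and 123 CPM in control libraries. In both groups libraries numbered 1 were lowest and those numbered 2 highest for adam10a, while those numbered 2 were lowest and those numbered 1 highest for adam10b.

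Gamma-secretase, which makes the second cut, is described here by psen2 and psenen. psen2 was at 41.8, 39.5 and 37.4 CPM in nucleotide libraries, against 36.1, 36.9 and 28.5 CPM in control libraries, with all nucleotide above all control libraries and a log2 fold change of 0.23 ± 0.1197 (SE, edgeR adjusted p = 0.445, and 0.0563 with the block). psenen, a small subunit of the complex, was at 37.3 ± 3.16 CPM in nucleotide and 32.3 ± 5.22 CPM in control libraries (SD, n = 3 each), with a log2 fold change of 0.21 (edgeR adjusted p = 0.525). Neither of the rbpj genes, whose product takes the Notch signal to DNA, passed. rbpja was at 33.9, 35.6 and 33.8 CPM in nucleotide libraries, against 30.9, 30.9 and 30.7 CPM in control libraries, so its control libraries were nearly equal and all lay below the nucleotide libraries, with a log2 fold change of 0.16 ± 0.0829 (SE, edgeR adjusted p = 0.434, and 0.148 with the block). rbpjb was at 10.7 ± 0.897 CPM in nucleotide and 10.5 ± 0.881 CPM in control libraries (SD, n = 3 each).

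Of the 16 her genes, 12 were tested and 0 passed in either fit. They split evenly, 6 with a log2 fold change above 0 and 6 below, and with library totals 4 above and 8 below. Summed over all 16, the level was 168, 138 and 125 CPM in nucleotide libraries, against 158, 158 and 135 CPM in control libraries. The sum did not separate the groups.

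The her4 and her15 genes encode Hes5-like repressors that respond to Notch in neural progenitors. her4.3 (792198) was at 4.68, 3.501 and 3.92 CPM in nucleotide libraries, against 2.64, 3.16 and 2.63 CPM in control libraries, with no overlap, and had the log2 fold change 0.52 ± 0.195 (SE, edgeR adjusted p = 0.276, and 0.0786 with the block). her4.2 had 76, 44 and 44 counts in nucleotide libraries, against 41, 27 and 22 counts in control libraries, and was higher in the nucleotide library of every pair (log2 fold change 0.55 ± 0.333 SE, edgeR adjusted p = 0.503). her15.2 was at 10.2, 8.21 and 7.08 CPM in nucleotide libraries, against 6.43, 7.51 and 5.56 CPM in control libraries (log2 fold change 0.39, edgeR adjusted p = 0.3998, and 0.0786 with the block). her15.1 was at 12.3, 11.2 and 8.75 CPM in nucleotide libraries, against 10.1, 11.3 and 8.56 CPM in control libraries (log2 fold change 0.11), and with library totals its value stood below 0 (-0.011). With the block and without pair 2, which also brought psen2 and psenen past the threshold (0.0341 and 0.0193), her4.3 and her15.2 passed (0.0488 and 0.0499). These were the 4 of 42 members called higher in that fit, beside 1150 of all 13373 genes. Without pair 1 or pair 3 the blocked fit called 0 members higher.

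The her4 and her15 genes lie in tandem runs in the RefSeq table of the assembly GRCz12tu, where her12 and 5 her4 genes follow each other, as do her2, her15.1 and her15.2. Their symbols have moved between copies. The gene number given for her4.2 is now listed as her4.5, that given for her15.1 is now listed as her15.2, and that given for her15.2 was not matched. Such copies can share reads, so the value of any one of them is uncertain. The neighbours of these 2 runs did not show the same sign, since her12 had a log2 fold change of -0.14 ± 0.1996 (SE) and her2 of -0.16 ± 0.265 (SE).

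her9 and her6 encode Hes1-like repressors. her9 was at 63.3, 53.2 and 43.6 CPM in nucleotide libraries, against 59.1, 66.4 and 48.4 CPM in control libraries, and her6 was at 48.5, 36.4 and 35.3 CPM in nucleotide libraries, against 48.4, 45.3 and 43.6 CPM in control libraries. In both, the groups overlapped and libraries numbered 3 were lowest in each group. The log2 fold change was -0.12 ± 0.164 (SE) for her9 and -0.19 ± 0.135 (SE) for her6, and her6 had an edgeR adjusted p of 0.566 (0.0964 with the block, and 0.02201 with the block and without pair 1). her13 was at 4.22, 4.47 and 5.49 CPM in nucleotide libraries, against 3.45, 3.73 and 3.3 CPM in control libraries, without overlap, and had the log2 fold change 0.44 ± 0.178 (SE, edgeR adjusted p = 0.318). The gene her8.2, its neighbour in the RefSeq table, was at 2.24 ± 0.436 CPM in nucleotide and 2.19 ± 0.745 CPM in control libraries (SD, n = 3 each). her8a was at 6.895 ± 0.581 CPM in nucleotide and 7.62 ± 0.736 CPM in control libraries (SD, n = 3 each). her3 had few counts, between 10 and 25 in nucleotide libraries and between 9 and 37 in control libraries, and its interval on the log2 scale was wide (-2.01 to 0.70).

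The genes her1, her7, her5 and her11 were near the limit of detection at this age. her1 had 11, 3 and 3 counts in nucleotide libraries, against 12, 4 and 8 counts in control libraries. her7, its partner in the segmentation clock and its neighbour in the RefSeq table, had 3, 3 and 6 counts in nucleotide libraries, against 14, 4 and 8 counts in control libraries. her5 and her11, which also neighbour each other, had 1 to 12 counts in every library. These 4 genes did not pass the filter on low counts and are not among the 42. DESeq2, which kept them, gave unadjusted p-values of 0.367 for her1, 0.109 for her7, 0.819 for her5 and 0.71 for her11. By CPM her1, her7 and her11 were lower in the nucleotide library of all 3 pairs, as were 27.4% of all tested genes. her5 was higher in 2 pairs. The DESeq2 log2 fold changes were -0.79, -1.39 and -0.29 for her1, her7 and her11, and -0.24 for her5. her11 had 5, 6 and 12 counts in nucleotide libraries, against 6, 5 and 12 counts in control libraries, so its order rests on the scaling.

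The 3 hey genes, Notch targets of heart and artery, did not pass in either fit. hey1 (58008) was at 30.4, 32.6 and 29.3 CPM in nucleotide libraries, against 27.8, 28.7 and 24.9 CPM in control libraries, with all nucleotide above all control libraries (log2 fold change 0.18 ± 0.0986 SE, edgeR adjusted p = 0.457, and 0.116 with the block). hey2, an early arterial gene known as gridlock in zebrafish, was at 7.89 ± 1.02 CPM in nucleotide and 8.26 ± 1.24 CPM in control libraries (SD, n = 3 each), and heyl was at 3.56 ± 0.177 CPM in nucleotide and 3.596 ± 0.926 CPM in control libraries (SD, n = 3 each). Of the hes genes, hes6, which opposes Hes1-type repression in other vertebrates, was at 11.7, 16.7 and 17.01 CPM in nucleotide libraries, against 14.2, 13.01 and 15.8 CPM in control libraries, and hes2.2 was at 1.62 ± 0.404 CPM in nucleotide and 1.89 ± 0.417 CPM in control libraries (SD, n = 3 each). Their 95% intervals on the log2 scale were -0.31 to 0.46 and -0.89 to 0.45. The row mibp2, the muscle integrin-binding protein gene caught by the symbol pattern, was at 587, 493 and 717 CPM in nucleotide libraries, against 584, 525 and 685 CPM in control libraries. The row mibp was listed at 0 in all 6 libraries.

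**Figure D3:**
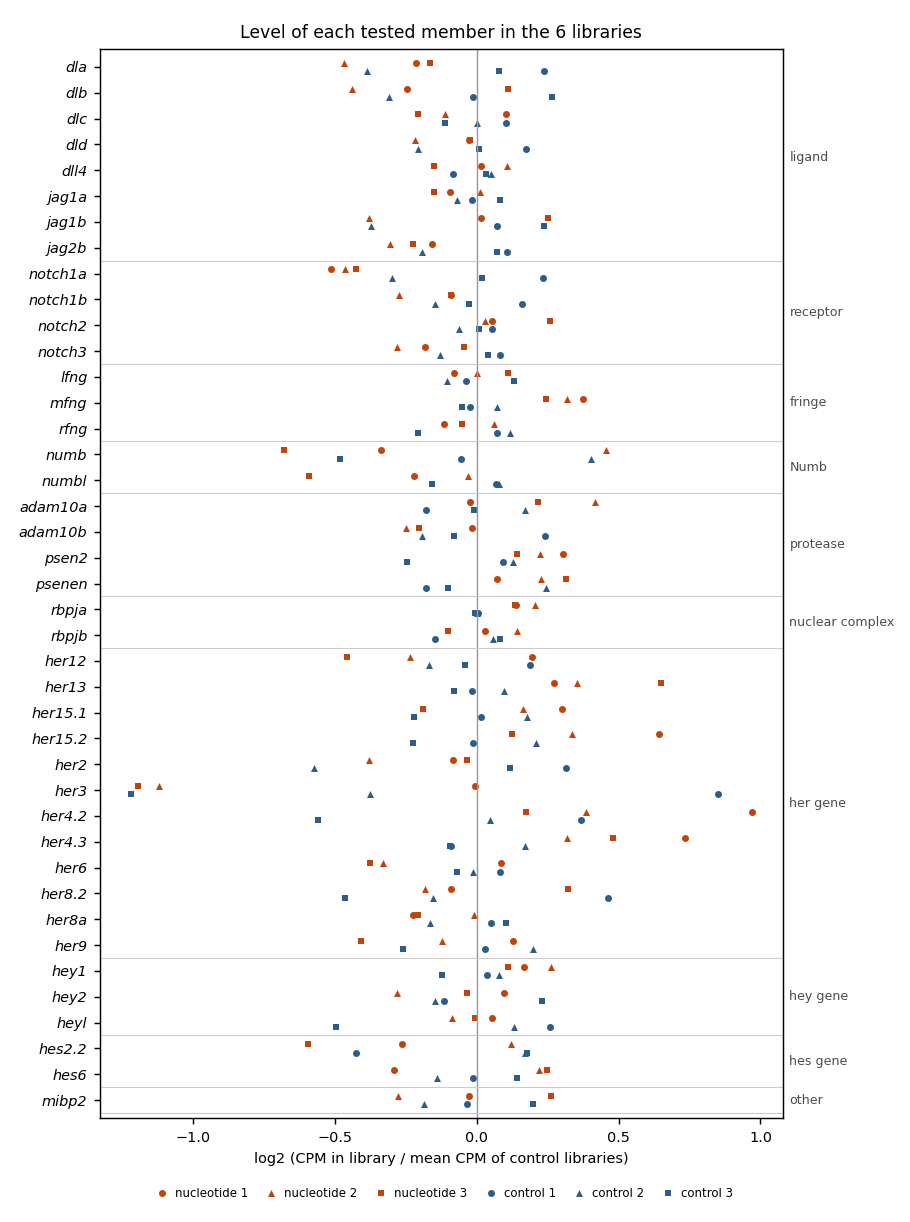
Level of 41 of the 42 tested members in every library as log2 of its CPM over the mean CPM of the control libraries, nucleotide above control within a row, with the marker shape giving the replicate number. The groups do not overlap for 7 members, 6 higher (mfng, psen2, rbpja, her13, her4.3 and hey1) and 1 lower (notch1a).

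The groups did not overlap for 7 of the 42 tested members (16.7%), and for 21.4% of all tested genes. By direction these were 6 higher and 1 lower, beside 11.5% and 9.89% of all genes. All 3 pairs had the nucleotide library higher for 10 members and lower for 10, against 25.7% and 27.4% of all genes.

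The replicate number carried more of the spread of these genes than the exposure did. The sum of squares of log2 (CPM + 0.5) over the 6 libraries was split into exposure, replicate number and rest, as a description without a test. The number has 2 degrees of freedom and the exposure 1, so it takes more of a spread that is due to neither. The median share over the 42 members was 53.6% for the number and 15.99% for the exposure, against 53.2% and 20.3% over all tested genes. The number had the larger share in 31 of the 42 (73.8%), beside 67.2% of all tested genes. It held 99.6% for jag1b, 97.1% for mibp2, 94.5% for numb, 87.02% for dlb and 86.5% for dlc. The exposure held 92.03% for rbpja, 89.7% for mfng, 74.5% for her4.3, 73.8% for her13 and 67.5% for notch1a.

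The same number was lowest in both groups for 28 of the 42 members (66.7%), beside 56.7% of all tested genes. Libraries numbered 2 were lowest in both groups for 12 of the 42 members (28.6%), beside 18.9% of all tested genes. This held for 8 of the 12 ligand and receptor genes, namely dla, dlb, dld, jag1b, jag2b, notch1b, notch2 and notch3. Libraries numbered 3 were lowest in both groups for 14 of the 42 members (33.3%), beside 21.4% of all tested genes. Of the 12 ligand and receptor genes this held for 1. The 14 members include her3, her4.2, her6, her9, her15.1, her15.2, numb and numbl, and also dlc, mfng, psen2, rbpja and hey1. The tested genes her2, her4.3, her8.2, her8a, her12 and her13 are not among them. The labels do not say what a replicate number stands for.

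**Figure D4:**
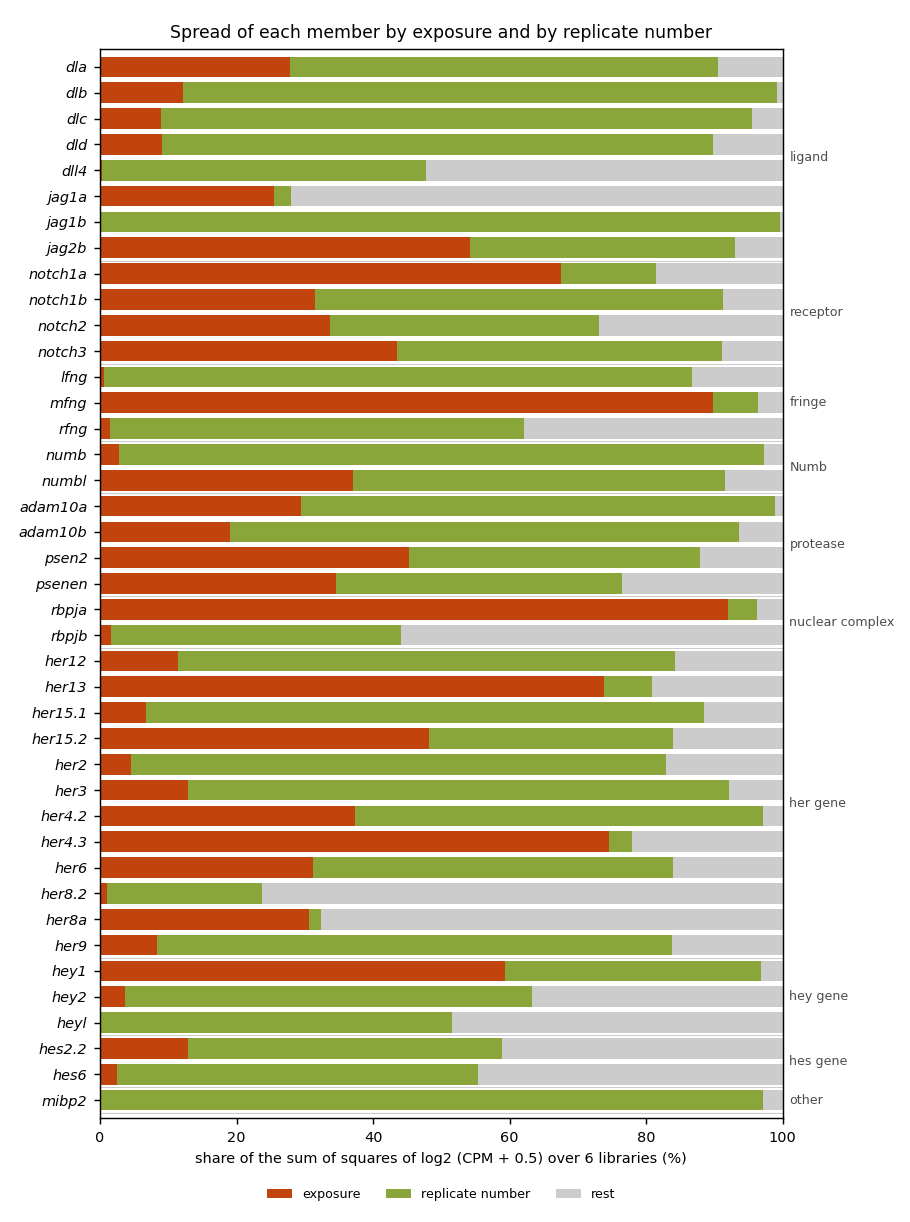
Share of the sum of squares of log2 (CPM + 0.5) over the 6 libraries that lies between the exposure groups, between the replicate numbers and in the rest, for 41 of the 42 tested members. The replicate number has a larger share than the exposure in 31 of all 42 members, and the exposure share is largest for rbpja (92.0%).

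Other genes of the pathway came from a list of 52 symbols, of which 28 were matched and tested. Only hdac1, a histone deacetylase that serves Rbpj corepressors among many other complexes, passed without the block, while 0.990% of all genes did. It was at 222, 229 and 247 CPM in nucleotide libraries, against 153, 154 and 161 CPM in control libraries, a log2 fold change of 0.58 ± 0.0925 (SE, edgeR adjusted p = 0.0328), and no library overlapped. The call was lost without any single library (adjusted p between 0.0827 and 0.198) and with library totals, whereas with the block it stood at 0.000115. With the block 1 of the 28 rose and 2 fell, beside 10.7% and 8.38% of all genes. Those that fell were the corepressor gene ctbp2l (log2 fold change -0.35, adjusted p = 0.0388) and the neuralized ligase gene neurl1aa (-0.22, adjusted p = 0.0499). The blocked ctbp2l call was lost without pair 2 or 3 (0.225 and 0.113), and that of neurl1aa without pair 1 or 3 (0.379 and 0.0915) and with DESeq2 size factors (0.0519). The gamma-secretase subunit gene aph1b, the convertase gene furina, which belongs to the family that cuts Notch before it reaches the surface, and the deltex ligase gene dtx1 had log2 fold changes of 0.19, -0.21 and -0.18 and passed in neither fit. The list median was 0.039.

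Proneural genes, which her repressors hold back, were listed with related basic helix-loop-helix, Id and zinc finger genes, and 29 of the 31 listed were measured. None passed without the block in edgeR, and none in DESeq2. At an unadjusted p under 0.05 in edgeR 1 was higher and 6 were lower, beside 8.30% and 6.19% of all genes. With the block 1 of 29 rose and 6 fell, beside 10.7% and 8.38% of all genes. The neuronal differentiation gene neurod6b was at 37.3, 34.8 and 37.2 CPM in nucleotide libraries, against 49, 47.2 and 43.2 CPM in control libraries, below control in every library, and had the log2 fold change -0.35 ± 0.0901 (SE, edgeR adjusted p = 0.138, and 0.00668 with the block). neurod2 had -0.47 (adjusted p = 0.0118 with the block), and the zinc finger genes insm1b and insm1a, which act in newborn neurons and endocrine cells, had -0.31 and -0.26 (0.0264 and 0.0362 with the block). With pairs left out of the blocked fit, neurod6b passed each time, neurod2 was lost without pair 3 (0.0551), insm1b without pair 1 (0.183) and insm1a without pair 1 or 2 (0.162 and 0.135). The inhibitor gene id2a was higher, at 0.29 ± 0.107 (SE, edgeR adjusted p = 0.268, and 0.00926 with the block), and its blocked call was lost without pair 2 (0.0742) and with library totals (0.0805). The hair cell and cerebellar gene atoh1a had -0.48 and passed in neither fit (0.0905 with the block).

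Markers of cells that use Notch, and of other tissues of the pools, were counted in the same way. Of all genes 10.7% rose and 8.38% fell with the block, and 0.937% and 0.0525% without it. DESeq2 called 3.79% of the genes it gave an adjusted p, and in edgeR 14.5% of all genes had an unadjusted p under 0.05. Of 20 tested radial glia and progenitor markers 3 rose and 1 fell with the block, and 2 rose without it, the brain aromatase gene cyp19a1b (2.96 on the log2 scale) and the progenitor gene sox2, which was at 103, 98.6 and 97.03 CPM in nucleotide and 67.5, 67.4 and 63.2 CPM in control libraries (log2 fold change 0.59 ± 0.0824 SE, edgeR adjusted p = 0.0166). The sox2 call was lost without any single library other than nucleotide library 3 (adjusted p up to 0.1004) and with library totals (0.0911). DESeq2 called 2 of these 20 markers, and 3 had an unadjusted p under 0.05 in edgeR. The median log2 fold change of the 20 was 0.095, with 13 above 0 and 7 below. The summed level of the list ran from 2333 to 2920.2 CPM in nucleotide libraries and from 2324 to 2533 CPM in control libraries. Of 12 tested neuron markers 1 rose (tubb5) and 7 rose with the block, with sums of 2496 to 2618 CPM in nucleotide and 2153 to 2237 CPM in control libraries, and gap43 at 0 in all 6. DESeq2 called 4 of the 12 higher, and 7 were higher at an unadjusted p under 0.05 in edgeR. The tubb5 call was lost without control library 1, 2 or 3 (adjusted p = 0.104, 0.0741 and 0.0623). Of 18 endothelial markers 1 fell with the block, 0 passed without it in edgeR or DESeq2 and 0 had an unadjusted p under 0.05, with sums of 449 to 484 CPM in nucleotide and 465 to 502 CPM in control libraries. Skeletal muscle markers summed to 44158 to 71299.5 CPM in nucleotide and 29414 to 33972 CPM in control libraries, with nucleotide library 3 apart from the rest, and 4 of 21 rose (18 with the block). DESeq2 called 12 of the 21 higher, and 14 were higher at an unadjusted p under 0.05 in edgeR. Of 8 heart markers 1 rose, the ventricular myosin gene vmhc, and 3 rose with the block. DESeq2 called 1 of the 8, and 3 had an unadjusted p under 0.05 in edgeR. The vmhc call was lost with upper quartile (0.0521), with library totals (0.0881) and without any single library (adjusted p between 0.0783 and 0.229). Of 14 gut, liver and pancreas, 8 epidermis, 8 blood and 8 lens and retina markers, 0 passed in edgeR without the block. DESeq2 called 1 epidermis and 1 blood marker, and at an unadjusted p under 0.05 there were 0, 2, 2 and 1 in these lists. With the block 3 gut, liver and pancreas markers rose and 2 fell, 3 epidermis markers rose and 1 fell, 2 blood markers rose and 1 fell, and 3 lens and retina markers rose and 1 fell. The part of these cell types in the values of the Notch genes was not tested.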

How the data were processed

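The authors deposited raw whole-number counts of reads for each gene in each library. The submitters' processing notes list TopHat2, HTSeq, DESeq2 and the build GRCz10, but neither versions nor roles. Nothing given here states the annotation, strand setting or handling of multi-mapped reads. A second set of columns deposited by the authors is their own comparison, which per the file headers holds a mean normalized count (signal), a log2 fold change with its error, a Wald statistic (score) and p-values with adjusted values. Of 14681 rows, 69 repeated a symbol with equal counts and were dropped. Totals ran from 25792829 to 31556366 counts in nucleotide and from 18690465 to 23066970 in control libraries.

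Counts were tested with edgeR 4.0.16 in R 4.3.3 (filterByExpr with a minimum count of 10 and a minimum total of 15, TMM, 2-sided quasi-likelihood F test, Benjamini-Hochberg adjustment over 13336 genes, threshold 0.05), which was also tested on simulated data. The outcome of that simulation is not given here, and no call above rests on it. DESeq2 1.42.0 was an alternative, as were other scalings, other filters, the replicate block and leaving out libraries. Blocked fits without a pair keep few residual degrees of freedom. Calls gained or lost there lean on the spread shared across genes more than on that of the gene itself. SE is the size of the log2 fold change over the square root of F. The biological coefficient of variation was 0.163 (0.0760 with the block).

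Each gene's log2 CPM was centred on its group mean, and libraries sharing a number then had correlations over genes of 0.573, 0.659 and 0.651. All exceed 0.1, the limit set for pairing, so pools were treated as paired by number on the evidence of the counts. Libraries of unlike number had correlations from -0.437 to -0.226, but centring on group means ties these values to each other. The pairing was chosen from the same counts that the blocked fit tests, and the blocked adjusted p-values rest on that choice. The library names end in numbers of their own. These match between the groups for pools numbered 2 and 3 but not for those numbered 1. By name, pair 1 is thus the least certain, and the labels state no pairing. Separate clutches are not stated either, and p-values cover only pool-to-pool spread.

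Members and lists were chosen with earlier results of these data known. Values are given in full for members past the threshold in either fit and, in each role, for the member with the highest CPM and the one with the smallest p. Genes named from a pathway list are the 6 with the smallest p, and those from a marker list are among the 2 with the smallest p, apart from gap43. Further members given by library were chosen after their values were seen. Values of 1 tested member are not reported here, and it is kept in the counts and medians. Levels are not compared between genes, since CPM are not scaled by length. The list of 52 pathway symbols was matched by symbol or NCBI gene number.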

Additional observations from a re-analysis of the deposited data

How the results depend on the processing

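Under 10 alternatives with all libraries and 9 that left out a library or a pair, the members called stayed at 0 in every setting without the replicate block. With the block 1 member rose and 4 fell, with DESeq2 size factors added 1 and 4, with upper quartile 0 and 4, and with library totals 0 and 10. These 3 scalings with the block were chosen after seeing the data. With single libraries left out and no block, 0 members rose and 0 fell. With pairs left out of the blocked fit, 0 to 4 rose and 1 to 4 fell. Over all genes, 398 rose and 96 fell with DESeq2, 1432 and 1118 with the block, and with the block 1457 and 1102 under DESeq2 size factors, 1211 and 1335 under upper quartile and 686 and 2889 under library totals. Without the block 11 fell under upper quartile and 18 under library totals. Leaving out single libraries without the block gave 39 to 79 rises and 0 to 2 falls. Leaving out pairs with the block gave 1012 to 1265 rises and 661 to 870 falls. The members' median log2 fold change, -0.031, was -0.056 with upper quartile and -0.155 with library totals, -0.057 and -0.156 with the block added, and -0.045 to -0.0085 with libraries or pairs left out. The median of all tested genes, -0.014, moved with these scalings too. It was -0.040 with upper quartile and -0.138 with library totals, and -0.040 and -0.140 with the block added. With libraries or pairs left out it was -0.0137 to -0.0052. The members' median minus that of all tested genes was -0.017 in the main fit and -0.017 with library totals. The TMM factors, which library totals leave out, were 0.999, 0.963 and 0.913 in nucleotide and 1.06, 1.03 and 1.04 in control libraries. The cause of these moves was not tested.

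Among the other pathway genes 0 rose with library totals and with single libraries left out, and 1 with pairs left out of the blocked fit. With the block 2 fell, with pairs left out of it 1 to 2, and with single libraries left out 0. Among the proneural genes 1 rose and 6 fell with the block, and 0 to 2 rose and 3 to 4 fell with pairs left out of it. With single libraries left out and no block, 0 rose and 0 fell.

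Some values changed sign, none of them called before or after. With library totals this held for her15.1 (-0.011, and -0.021 with the block), her8.2 (-0.10 and -0.072), hes6 (-0.055 and -0.065), lfng (-0.11 and -0.11), mibp2 (-0.13 and -0.13), notch2 (-0.011 and -0.011) and rbpjb (-0.096 and -0.10). With upper quartile it held for lfng (-0.014, and -0.013 with the block), mibp2 (-0.025 and -0.031) and, with the block alone, rbpjb (-0.0014). With the block heyl stood at 0.011 (0.013 with DESeq2 size factors) and mibp2 at -0.0054 (-0.0033). Leaving out libraries or pairs gave ranges across 0 for dlc (-0.15 to 0.0030), dld (-0.18 to 0.0092), dll4 (-0.066 to 0.079), her2 (-0.37 to 0.022), her3 (-1.15 to 0.10), her8.2 (-0.32 to 0.41), her9 (-0.25 to 0.012), hes2.2 (-0.42 to 0.049), hes6 (-0.080 to 0.24), hey2 (-0.20 to 0.066), heyl (-0.21 to 0.14), jag1b (-0.17 to 0.14), lfng (-0.037 to 0.083), mibp2 (-0.14 to 0.13), numb (-0.50 to 0.14), rbpjb (-0.042 to 0.13) and rfng (-0.13 to 0.061).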
